A study of Mus musculus with 57 samples.

Results

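Inguinal white adipose tissue (WAT), the subcutaneous fat pad of the mouse groin, was compared between wild-type (WT) mice kept on a high-fat diet (HFD) and WT mice kept on chow. The members were the count columns of the 8 WT mice on HFD and of the 7 WT mice on chow, joined by gene symbol. They made up 15 of the 41 count columns, which came from 57 sequenced libraries in all. The mice were male, on a C57BL/6J background, began their diet at 5 weeks of age according to the labels, and stayed on it for 6 months. HFD supplied 45% of its energy as fat. The study was built around knock-in (KI) mice homozygous for a missense allele of Mfn2, which encodes mitofusin 2, a protein of the outer mitochondrial membrane needed for mitochondrial fusion. The WT mice were their littermates, and the KI colony went back to 1 founder. Each HFD mouse had 2 libraries, which had been combined into 1 column, and each chow mouse had 1. The diets were counted in separate tables, so that diet, count table, libraries per mouse and depth changed together and cannot be told apart. What follows describes the difference between these groups of mice and tables, and "diet" is used below as its short name.

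White adipocytes store energy as triglyceride, which they assemble from fatty acids taken up from blood or built from glucose by de novo lipogenesis, and which they release again by lipolysis. The respiratory chain of their mitochondria is put together from subunits encoded in the nucleus and subunits encoded by the mitochondrial genome. Feeding with excess fat enlarges the tissue, and matrix, vessels and macrophages are known to change with it. The RNA came from whole tissue, in which fewer cells of a type and less RNA per cell of that type cannot be told apart.

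Total counts ran from 8668279 to 11720458 in the chow mice and from 19835504 to 25680411 in the HFD mice, a ratio of medians of 2.1. Genes with at least 1 count numbered 19528 to 21793 on chow and 22076 to 23719 on HFD. In neither measure did the diets overlap (2-sided exact permutation test, p = 0.000155 for each, the smallest that the 6435 divisions of 15 mice allow, and 0.00093 adjusted over the 18 library measures compared). Since HFD columns combined 2 libraries and chow columns held 1, these p-values cannot be read as a difference between the mice. As a check of fat against other tissues, which does not tell fat depots apart, 18 adipocyte markers were summed. Their summed level was 47540 to 76880 CPM (counts scaled by library size) on chow and 54910 to 80930 CPM on HFD, with no marker at 0 in either diet. Pearson correlations of log2 CPM were 0.928 to 0.975 among chow mice, 0.946 to 0.981 among HFD mice and 0.900 to 0.965 between the diets. The first principal component held 38.8% of the variance, and all HFD mice lay on the other side of 0 from all chow mice.

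One chow library stood apart from the others and went against its depot label in the genes that follow, the library labelled chow mouse 4. It was set against the rest with genes chosen after their values had been seen. Wt1, Upk3b and Msln, genes of the mesothelium that lines the body cavities, reached 11.5, 38.5 and 18.5 CPM in it and at most 0.203 CPM in the other chow mice. Krt8, a keratin of simple epithelia, stood at 64.2 CPM against at most 0.406 CPM. Transcription factors that mark subcutaneous fat went the other way. Tbx15 was at 0.415 CPM where the other chow mice held 14.1 to 21.2 CPM, Shox2 at 0.332 CPM against 11.9 to 22.8 CPM, and Hoxc10 at 0.166 CPM against 18.1 to 28.6 CPM. HFD mice held at least 10.2 CPM of Tbx15, 10.4 CPM of Shox2 and 17.2 CPM of Hoxc10. Tcf21, a transcription factor of visceral fat, stood at 5.48 CPM and Adam7, a gene of the epididymis, at 7.89 CPM, where no other WT mouse had a count of either. The summed level of 10 mesothelial markers was 250.1 CPM in this library and 2.72 to 4.81 CPM in the other chow mice. Its 18 adipocyte markers summed to 47540 CPM against 70860 to 76880 CPM, and its macrophage markers to 5535 CPM against 1512 to 3117 CPM. On the second principal component, which held 14% of the variance, it lay at 84.7, beyond every other mouse. From which depot this library came was not tested, and the values for WT inguinal WAT include it unless stated. Its part in each result was measured by leaving it out, and results that turned on it are given both ways.

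**Figure D1:**
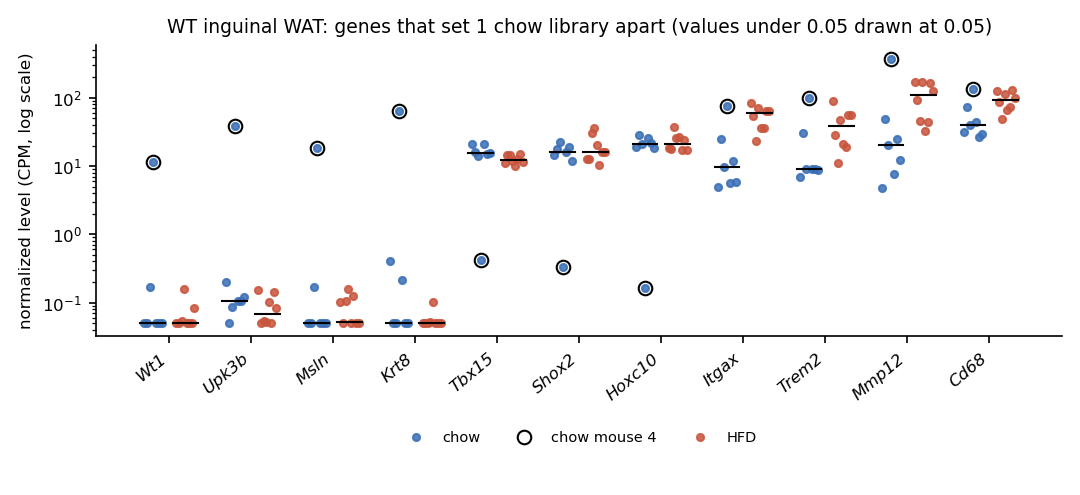
Normalized level (CPM, log axis) of 11 genes in WT inguinal WAT, 1 point per mouse, chow in blue, HFD in red, chow mouse 4 ringed and bars at the median of each diet. Values under 0.05 CPM are drawn at 0.05. The ringed library lies above all other mice for Wt1, Upk3b, Msln and Krt8, below all others for Tbx15, Shox2 and Hoxc10, and among the HFD mice or above them for Itgax, Trem2, Mmp12 and Cd68.

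Between the diets, 4514 of 16318 genes tested differed (edgeR quasi-likelihood test, Benjamini-Hochberg adjusted p below 0.01). Of these 1998 were higher on HFD, 12.2% of the genes tested, and 2516 were lower, 15.4%. The median log2 fold change over all genes tested, given throughout as HFD over chow ± standard error (SE), was 0.02, and 985 of the called genes changed by more than 1 on that scale. In 2097 genes, 12.9% of those tested, the mice of the diets did not overlap, and 2087 of them were called. Without chow mouse 4, 2298 of 16445 genes tested were higher (14%) and 2811 lower (17.1%). The same contrast in KI mice, taken from the same pair of tables, called 2244 of 16243 genes higher (13.8%) and 2679 lower (16.5%). Called in both genotypes were 2946 genes in the same direction and 13 in opposite directions.

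The direction of change followed the length of the transcript, a property looked at after the fold changes had been seen. Among protein-coding genes with up to 1 kb of exons, 6.84% rose and 42.3% fell, with a median log2 fold change of -0.42. Among those of 2 to 4 kb, 6.26% rose and 21.9% fell, with a median of -0.10. Above 8 kb the order was turned around, with 25.6% higher, 4.19% lower and a median of 0.21. Genes of up to 2 kb took 14.4 to 16.5% of the nuclear counts in chow mice and 11.3 to 13.2% in HFD mice, with no overlap (2-sided exact permutation test, p = 0.000155, adjusted 0.00093). The KI mice showed the same course over the length classes, from a median of -0.51 in the shortest to 0.20 in the longest. A fit with each library's own trend on gene length as an offset, added after this had been seen, called 2303 genes higher (14.1%) and 1761 lower (10.8%), so that 57% of its calls were higher against 44% without the offset. Cytosolic ribosomal proteins, encoded by short and highly expressed genes, were added as a list at the same point. Of 81 tested, 37 fell, with a median of -0.34, and with the offset 16 fell and 6 rose. Among genes described as called further on, Asns, Atf4, Atf5, C1qa, Ccl24, Cidea, Ddit3, Dgat1, H2-Eb1, Hbb-bt, Hspa1a, Il18, Isg15, Jund, Kif11, Kit, Klf15, Krt10, Lrrn4, Mpc1, Nnat, Nr1d1, Pcna and Tgfb2 lost their call with the offset (adjusted p = 0.0104 to 0.751), each keeping its direction.

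**Figure D2:**
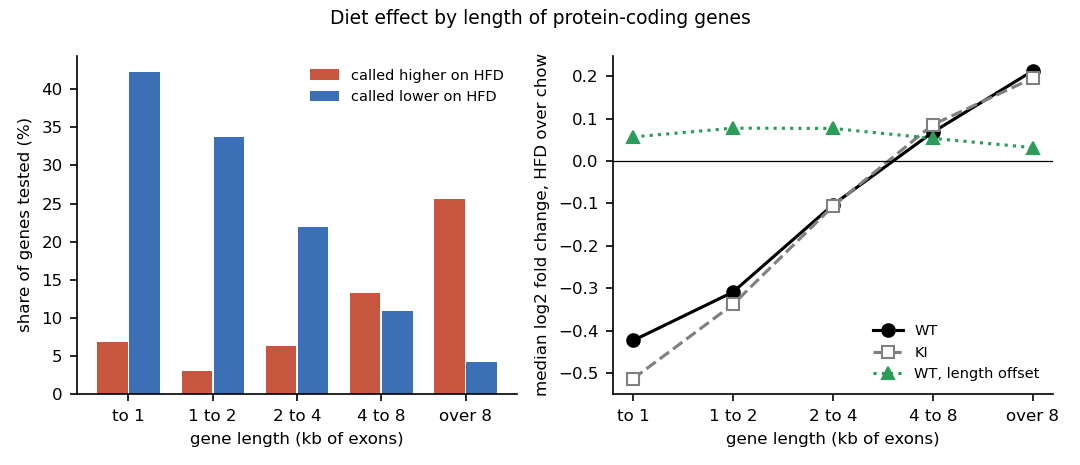
Left, share of tested protein-coding genes called higher (red) or lower (blue) on HFD in WT mice, by summed exon length in kb. Right, median log2 fold change of HFD over chow in the same classes for WT mice, KI mice and WT mice with the length offset. The WT line runs from -0.42 to 0.21, the KI line lies close to it, and the line with the offset stays between 0.03 and 0.08.

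Among the lists examined, the nuclear genes of the respiratory chain had the largest share of members called lower, beside 15.4% over all genes tested. Of 77 tested, 65 were lower on HFD and none was higher (68 lower and none higher with DESeq2, 73 lower and none higher at an unadjusted p below 0.05), with a median log2 fold change of -0.82. Their summed level was 12776 to 21222 CPM in chow mice and 9514 to 11697 CPM in HFD mice, so that the highest HFD mouse lay below the lowest chow mouse. All complexes took part. Called lower were 29 of 37 genes of complex I, which oxidizes NADH, 4 of 4 of complex II, the succinate dehydrogenase, and 8 of 9 of complex III. In complex IV, the cytochrome c oxidase, 11 of 12 fell, and in complex V, the ATP synthase, 13 of 14. The median log2 fold changes by complex were -0.84, -0.76, -0.98, -0.80 and -0.65 in that order. Cycs, the mobile electron carrier cytochrome c, was not called (log2 fold change -0.06, adjusted p = 0.721). With the length offset 53 were lower and 1 higher, with a median of -0.49, and in complex IV the offset left 6 lower. Without chow mouse 4, 69 were lower.

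Of the single subunits, Ndufa2, Atp5k and Cox8b were picked as the 3 largest falls of the list, whose median was -0.82. Ndufa2, an accessory subunit of complex I, ranged from 147 to 255 CPM on chow (median 207) and from 48.1 to 90.2 CPM on HFD (median 60.2). No HFD mouse reached the lowest chow mouse (log2 fold change -1.68 ± 0.14, adjusted p = 2.08e-07). Atp5k, the e subunit of the ATP synthase, ranged from 57.5 to 102 CPM on chow (median 74.2) and from 12.2 to 38.4 CPM on HFD (median 22.8), and its diets too were apart (log2 fold change -1.75 ± 0.20, adjusted p = 8.46e-06). Cox8b, a cytochrome c oxidase subunit found in brown fat and muscle, had 21.1 CPM in the lowest, 38.5 in the median and 67.5 in the highest chow mouse, against 4.06, 7.26 and 11.8 CPM on HFD. It showed the largest fall among the nuclear chain genes, again with no overlap (log2 fold change -2.45 ± 0.29, adjusted p = 1.05e-05). Sdhb, the iron-sulphur subunit of complex II, ranged from 124 to 266 CPM on chow (median 219) and from 93.4 to 113 CPM on HFD (median 97.2), all HFD mice below all chow mice (log2 fold change -1.09 ± 0.12, adjusted p = 3.19e-06). Cox4i1, the common form of subunit 4 of complex IV, ranged from 696 to 1216 CPM on chow (median 1007) and from 473 to 599.5 CPM on HFD (median 541) and fell in the same manner (log2 fold change -0.84 ± 0.11, adjusted p = 1.66e-05). Ndufs1, the large core subunit of complex I, was among the 12 genes not called (log2 fold change -0.28 ± 0.12, adjusted p = 0.0685). Only Ndufb2 and Ndufb4, named after their values were seen, lay above 0 (0.32, adjusted p = 0.232, and 0.21, adjusted p = 0.243).

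The promoters of these genes are shown for a feature that the counts did not use. NRF1, a transcription factor known to drive nuclear respiratory genes, binds a GC-rich palindromic site, and its centre, CGCATGCG, which reads the same on both strands, was searched in the 250 bases before each start. This form was chosen after longer forms of the site had been looked at. RefSeq gave promoters (build GRCm38.p6) for 65 of the 77 genes, and 8 of them held the centre (12.3%), against 3.31% of 11604 tested genes with a promoter and 1.55% of all 32851 promoters. Of the 8 genes with it 7 were called lower, and of the 57 without it 50, with medians of -0.58 and -0.84. Given 5′ to 3′ along the gene, with the centre in capitals, are the stretches of the 3 genes with the largest falls among the 8, Atp5k (chr5:108434401-108434488, minus strand, log2 fold change -1.75), Cox6a1 (chr5:115349072-115349159, minus strand, -1.001) and Ndufa8 (chr2:36049339-36049387, minus strand, -0.96), and Cycs (chr6:50566583-50566670, minus strand, -0.06), which holds the centre and was not called.
Atp5k: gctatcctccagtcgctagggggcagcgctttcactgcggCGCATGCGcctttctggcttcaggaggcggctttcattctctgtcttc
Cox6a1: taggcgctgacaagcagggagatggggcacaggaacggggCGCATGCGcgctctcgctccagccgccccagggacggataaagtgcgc
Ndufa8: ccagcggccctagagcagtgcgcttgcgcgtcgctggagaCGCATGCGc
Cycs: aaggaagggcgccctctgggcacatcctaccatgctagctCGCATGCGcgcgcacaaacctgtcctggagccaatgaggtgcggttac

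Subunits encoded by the mitochondrial genome moved the other way in WT mice. Of 13 mitochondrial mRNAs, 12 were higher on HFD, beside 12.2% over all genes tested, with a median log2 fold change of 1.42. They summed to 20832 to 47196 CPM in chow mice and to 46129 to 141660 CPM in HFD mice, and only the highest chow mouse overlapped the HFD range. The mitochondrial share of all counts was 2.39 to 5.12% on chow and 5.40 to 14.8% on HFD (2-sided exact permutation test, p = 0.000622, adjusted 0.00224). mt-Nd2, a core subunit of complex I, ranged from 1500 to 3371 CPM on chow (median 2487) and from 4468 to 13870 CPM on HFD (median 9858) and was higher in every HFD mouse (log2 fold change 1.96 ± 0.25, adjusted p = 1.3e-05). mt-Nd1, another core subunit, ranged from 2680 to 5136 CPM on chow (median 3371) and from 5384 to 17760 CPM on HFD (median 10171), again without overlap (log2 fold change 1.56 ± 0.26, adjusted p = 0.000135). mt-Co1, the catalytic subunit of complex IV, ranged from 7856 to 18149 CPM on chow (median 12283) and from 17902 to 56879 CPM on HFD (median 36697). The highest chow mouse passed the lowest HFD mouse for this gene (log2 fold change 1.42 ± 0.24, adjusted p = 0.000151). mt-Nd3 was the one mRNA not called (0.75, adjusted p = 0.0903). Several mitochondrial genes have near-identical copies in the nuclear genome, and their deposited counts are uncertain, among them mt-Nd4l, which ranged from 0.381 to 2.30 CPM on chow (median 1.09) and from 2.47 to 6.53 CPM on HFD (median 3.63). The 2 complex V mRNAs, mt-Atp6 and mt-Atp8, together summed to 9.44 to 19.3 CPM on chow and 21.0 to 60.2 CPM on HFD. The 3 complex IV mRNAs summed to 7891 to 18199 CPM on chow, nearly all of it mt-Co1. Several of the 13 calls thus rested on low counts. Without chow mouse 4, 10 of the 13 were called.

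The same mRNAs were compared between the genotypes. In KI mice none of the 13 was called with edgeR (1 higher and 2 lower at an unadjusted p below 0.05), and their median log2 fold change was 0.01. This turned on 1 library, chow KI mouse 4. Its mitochondrial mRNAs summed to 39085 CPM, against 14838 to 17192 CPM in the other 5 chow KI mice and 18245 to 28493 CPM in the HFD KI mice, so that without it all HFD KI mice lay above the chow KI mice. The same library held 96040 CPM of skeletal muscle markers, where the other chow KI mice held 107 to 448 CPM. Without it, a fit added after this had been seen, 3 of the 13 were higher in KI mice (mt-Nd2, mt-Nd5 and mt-Nd6) and none was lower, beside 12.5% higher over all genes tested in that fit, and the median was 0.38. The test of the difference between the diet effects called 1 of the 13, mt-Nd2 (-1.58 ± 0.34, adjusted p = 0.00964), with 12 at an unadjusted p below 0.05 and 8 called by DESeq2. That call was lost without chow KI mouse 4 (adjusted p = 0.0182), when none of the 13 was called and 11 were at an unadjusted p below 0.05. The nuclear chain genes fell in both genotypes, 74 of 77 in KI mice with a median of -1.02 (72 without chow KI mouse 4), and the difference test called none of them (16 at an unadjusted p below 0.05, 1 with DESeq2). Beside this, 16.5% of all genes tested fell in KI mice, and the difference test called 0.632%. KI sums for the nuclear genes were 19690 to 29584 CPM on chow and 10539 to 13961 CPM on HFD.

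**Figure D3:**
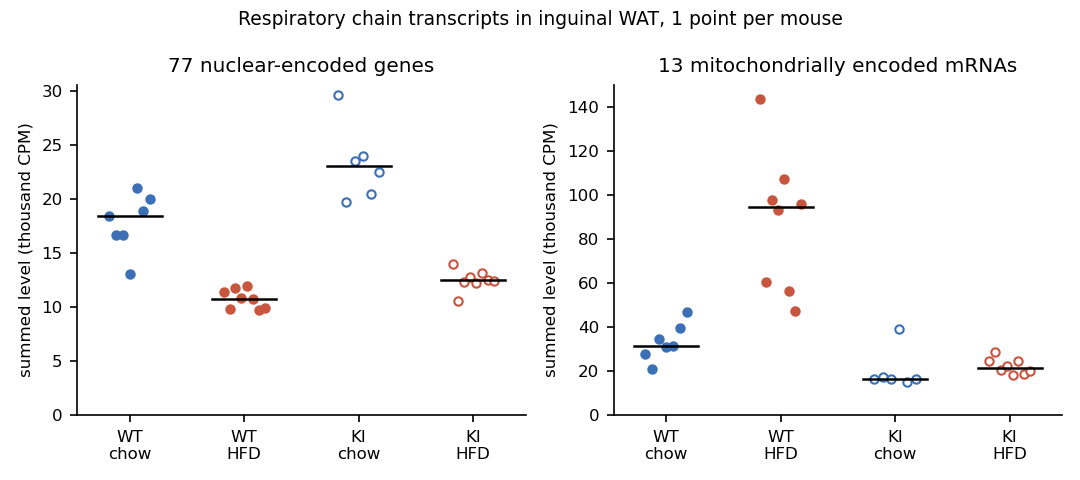
Summed normalized level (in units of 1000 CPM) of 77 nuclear-encoded and 13 mitochondrially encoded respiratory chain transcripts in the 29 inguinal WAT count columns, 1 point per mouse, filled for WT and open for KI, bars at the median. All columns were scaled together here, so values differ slightly from those of the WT fit. Nuclear transcripts are lower on HFD in both genotypes, and mitochondrial transcripts are raised on HFD in WT mice, with chow KI mouse 4, at 39085 CPM, above the rest of the KI mice.

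Other mitochondrial pathways held members that fell. Over all genes tested 15.4% were lower and 12.2% higher, and with the length offset 10.8% and 14.1%. In the tricarboxylic acid cycle and pyruvate entry, 14 of 28 genes fell and none rose (16 and none with DESeq2, 17 and none at an unadjusted p below 0.05), with a median of -0.39, and 8 fell with the length offset. Mpc1, a subunit of the mitochondrial pyruvate carrier, ranged from 129 to 186 CPM on chow (median 154) and from 78.9 to 117 CPM on HFD (median 102), the diets being apart (log2 fold change -0.65 ± 0.10, adjusted p = 9.6e-05). With the offset its call was lost (-0.33, adjusted p = 0.0174). Cs, citrate synthase, was not called (log2 fold change -0.24 ± 0.14, adjusted p = 0.172). In fatty acid beta-oxidation, 10 of 26 genes fell and 1 rose, with a median of -0.24 (8 fell and 2 rose with the length offset). The gene that rose was Cpt1a, the enzyme that commits long-chain fatty acids to mitochondria, at 54.1 CPM in the lowest, 76.7 in the median and 88.9 in the highest chow mouse, against 120.2, 144 and 169.8 CPM on HFD. Every HFD mouse exceeded every chow mouse (log2 fold change 0.95 ± 0.11, adjusted p = 3.19e-06). Acadvl, which opens the oxidation of very long chains, ranged from 187 to 317 CPM on chow (median 269.5) and from 120.4 to 166 CPM on HFD (median 131), with every HFD mouse lower (log2 fold change -0.90 ± 0.11, adjusted p = 8.75e-06). Etfb, a subunit of the flavoprotein that takes its electrons, ranged from 45.6 to 113 CPM on chow (median 68.4) and from 13.8 to 32.6 CPM on HFD (median 24.4) and was also lower throughout (log2 fold change -1.55 ± 0.18, adjusted p = 6.39e-06). Mitochondrial ribosomal proteins, a list added after values were seen, had 50 of 74 genes lower and 1 higher, with a median of -0.45. With the length offset 33 were lower and 1 higher, with a median of -0.24.

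Genes of mitochondrial shape and dynamics had 5 of 16 members lower and 1 higher, beside 15.4% and 12.2% over all genes tested. Dnm1l, the dynamin-related protein that divides mitochondria, was the one that rose, at 59.7 CPM in the lowest, 62.7 in the median and 67.7 in the highest chow mouse, against 83.8, 94.9 and 126 CPM on HFD. The mice of the diets did not overlap (log2 fold change 0.70 ± 0.09, adjusted p = 1.5e-05). Phb2, a prohibitin scaffold of the inner membrane, ranged from 156 to 210.0 CPM on chow (median 178) and from 104 to 128 CPM on HFD (median 114) and was lower in all HFD mice (log2 fold change -0.66 ± 0.07, adjusted p = 3.07e-06). Mfn2, the gene altered in the KI mice, ranged from 128 to 225 CPM on chow (median 214) and from 143 to 216 CPM on HFD (median 169.8), and its overlapping groups were not called apart (log2 fold change -0.15 ± 0.12, adjusted p = 0.312). Mfn1, its paralogue, stood at log2 fold change -0.25 ± 0.08, adjusted p = 0.018, short of the threshold, which it passed with the length offset (-0.30, adjusted p = 0.00781) and without HFD mouse 8 (adjusted p = 0.00894). Opa1, the fusion protein of the inner membrane, was at 0.03 ± 0.09, adjusted p = 0.779.

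Lipid synthesis was lower in part. In de novo lipogenesis 6 of 21 genes fell and 1 rose, with a median of -0.23, beside 15.4% and 12.2% over all genes tested. Thrsp, a nuclear protein that promotes lipogenesis, ranged from 437 to 1142 CPM on chow (median 862) and from 76.01 to 240.2 CPM on HFD (median 185). All HFD mice lay below all chow mice (log2 fold change -2.19 ± 0.24, adjusted p = 4.57e-06). Tkt, transketolase of the pentose phosphate pathway, ranged from 409 to 883 CPM on chow (median 597) and from 232 to 347 CPM on HFD (median 311), likewise apart (log2 fold change -1.01 ± 0.15, adjusted p = 4.06e-05). Acaca, the acetyl-CoA carboxylase that makes malonyl-CoA, ranged from 109.7 to 456 CPM on chow (median 283) and from 80.1 to 186 CPM on HFD (median 111), with overlap (log2 fold change -1.17 ± 0.27, adjusted p = 0.00282). Fasn, fatty acid synthase, ranged from 832 to 3215 CPM on chow (median 1767) and from 469.9 to 1555 CPM on HFD (median 896) and also overlapped (log2 fold change -1.002 ± 0.27, adjusted p = 0.00683), and its call was lost in 10 of the 15 fits that left out 1 mouse. G6pdx, the first enzyme of the pentose phosphate pathway, was the member that rose, at 141 CPM in the lowest, 179 in the median and 220.3 in the highest chow mouse, against 268, 312 and 451 CPM on HFD, without overlap (log2 fold change 0.89 ± 0.12, adjusted p = 2.41e-05). Acly and Scd1, the citrate lyase and a desaturase of the same route, were not called (Acly -0.38, adjusted p = 0.0589, and Scd1 0.41, adjusted p = 0.174).

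In uptake and storage of fatty acids 4 of 22 genes fell and 2 rose, near the shares over all genes tested (15.4% lower and 12.2% higher). Mogat1, a monoacylglycerol acyltransferase, ranged from 15.7 to 36.3 CPM on chow (median 27.1) and from 4.32 to 13.05 CPM on HFD (median 10.3), with the diets apart (log2 fold change -1.40 ± 0.22, adjusted p = 9.23e-05). Pck1, which supplies glycerol for triglyceride in fat cells, ranged from 546 to 3134 CPM on chow (median 2792) and from 583 to 1312 CPM on HFD (median 928). Its lowest chow value was that of chow mouse 4, and without that mouse it stood at -1.44, adjusted p = 1.52e-05, against -1.26 ± 0.29, adjusted p = 0.00257 with it. Dgat1, which completes triglyceride, fell less (log2 fold change -0.60 ± 0.13, adjusted p = 0.00133). Fabp5, a cytosolic fatty acid carrier, rose (log2 fold change 0.53 ± 0.14, adjusted p = 0.00499). Lpl and Cd36, the lipase and the transporter that bring fatty acids into the cell, were not called (Lpl -0.07, adjusted p = 0.675, and Cd36 0.20, adjusted p = 0.18).

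In lipolysis and the lipid droplet 6 of 24 genes fell and 1 rose, with a median of -0.18, beside 15.4% and 12.2% over all genes tested. With the length offset 2 fell and 2 rose. Adrb3, the beta-3 adrenergic receptor through which catecholamines start lipolysis in rodent fat, ranged from 146 to 563 CPM on chow (median 294) and from 40.4 to 159 CPM on HFD (median 95.2). The groups overlapped at their edges (log2 fold change -1.72 ± 0.32, adjusted p = 0.000547). Cidea, a droplet protein of brown and beige adipocytes, ranged from 6.14 to 52.3 CPM on chow (median 32.8) and from 3.41 to 11.4 CPM on HFD (median 7.40), with overlap (log2 fold change -1.91 ± 0.41, adjusted p = 0.0017), and was no longer called with the length offset (adjusted p = 0.0104). Adora1, an adenosine receptor that restrains lipolysis, rose (log2 fold change 0.86 ± 0.21, adjusted p = 0.00425). The lipases themselves, Pnpla2 and Lipe, lay at -0.42 (adjusted p = 0.0659) and -0.39 (adjusted p = 0.0669). Both were called lower once chow mouse 4 was left out (Pnpla2 -0.55, adjusted p = 0.00325, and Lipe -0.51, adjusted p = 0.00253).

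Among brown and beige genes 5 of 18 fell and 1 rose, beside 15.4% and 12.2% over all genes tested. Ucp1, the uncoupling protein that defines brown fat, was too low to test, at most 0.572 CPM on chow and 1.95 CPM on HFD. Ppargc1a, a coactivator of mitochondrial genes, ranged from 2.10 to 8.42 CPM on chow (median 6.27) and from 2.39 to 4.46 CPM on HFD (median 2.78) and missed the threshold (log2 fold change -0.86 ± 0.26, adjusted p = 0.0127), though DESeq2 called it lower (adjusted p = 0.00418), as did edgeR without chow mouse 2, 3 or 4 or HFD mouse 3 (adjusted p = 0.00219 to 0.00786). The gene that rose was Elovl3, a fatty acid elongase, described with the largest changes.

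**Figure D4:**
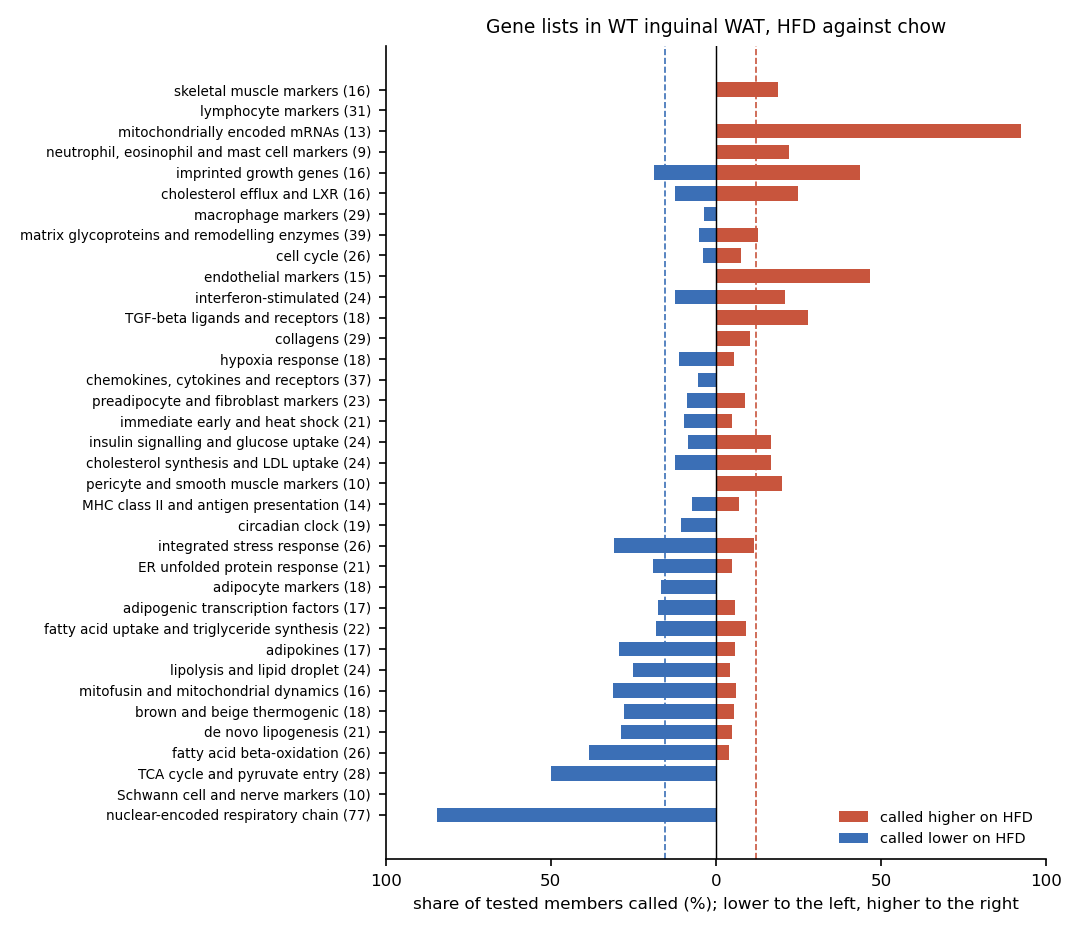
Share of the tested members of 36 gene lists called lower (blue, to the left) or higher (red, to the right) on HFD in WT inguinal WAT, in percent, with the number tested in brackets. Dashed lines mark the shares over all genes tested, 15.4% lower and 12.2% higher. The nuclear respiratory chain extends farthest to the left and the mitochondrially encoded mRNAs farthest to the right.

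Secreted adipocyte proteins were mostly lower where they were called, 5 of 17 adipokines against 1 higher, Mest, which is also on the imprinted list. Over all genes tested 15.4% were lower and 12.2% higher. Cfd, adipsin, the adipocyte's complement factor D, ranged from 2878 to 14906 CPM on chow (median 7167) and from 1011 to 3053 CPM on HFD (median 1636). The groups met only at their edges (log2 fold change -2.18 ± 0.34, adjusted p = 9.63e-05). Retn, resistin, ranged from 514 to 1426 CPM on chow (median 1051) and from 339 to 551 CPM on HFD (median 438) (log2 fold change -1.21 ± 0.17, adjusted p = 2.35e-05). Its lowest chow value, in chow mouse 4, was the one that overlapped the HFD mice. Agt, angiotensinogen, ranged from 2.82 to 117 CPM on chow (median 28.9) and from 1.23 to 3.08 CPM on HFD (median 2.32), with chow mouse 4 the highest. Without that mouse its log2 fold change was -3.25, adjusted p = 7.63e-05, against -3.94 ± 0.61, adjusted p = 0.000147 with it. Lep, leptin, the hormone that reports fat stores, ranged from 955 to 3418 CPM on chow (median 1864) and from 1819 to 4047 CPM on HFD (median 2403) and was not called (log2 fold change 0.40 ± 0.23, adjusted p = 0.172). Adipoq, adiponectin, ranged from 2049 to 4181 CPM on chow (median 3227) and from 2413 to 3526 CPM on HFD (median 2778), also without a call (log2 fold change -0.13 ± 0.14, adjusted p = 0.456). Of the 18 adipocyte markers 3 fell (Cfd, Adrb3 and Slc2a4), and 6 did without chow mouse 4.

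Of 17 transcription factors of adipogenesis 3 fell and 1 rose, where 15.4% fell and 12.2% rose over all genes tested. Cebpa, which keeps adipocytes differentiated, ranged from 636 to 1840 CPM on chow (median 1320) and from 470.4 to 694 CPM on HFD (median 579). Chow mouse 4 was again the chow mouse within the HFD range (log2 fold change -1.21 ± 0.17, adjusted p = 2.69e-05). Klf15, a factor of the mature adipocyte, fell (log2 fold change -0.85 ± 0.21, adjusted p = 0.00421), and with the length offset it was no longer called (-0.63, adjusted p = 0.0244). Zfp423, a marker of committed preadipocytes, ranged from 41.9 to 66.4 CPM on chow (median 53.1) and from 70.3 to 115 CPM on HFD (median 83.4), higher in all HFD mice (log2 fold change 0.70 ± 0.12, adjusted p = 0.000132). Pparg, the master regulator of fat cells, was not called (log2 fold change 0.15 ± 0.14, adjusted p = 0.41).

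In insulin signalling and glucose uptake 4 of 24 genes rose and 2 fell, beside 12.2% and 15.4% over all genes tested. Sorbs2, an adaptor protein of the actin cytoskeleton, ranged from 12.8 to 40.05 CPM on chow (median 27.5) and from 48.5 to 115 CPM on HFD (median 79.2), with every HFD mouse higher (log2 fold change 1.56 ± 0.23, adjusted p = 7.62e-05). Slc2a4, the insulin-regulated glucose transporter GLUT4, ranged from 118 to 314 CPM on chow (median 256) and from 123 to 151 CPM on HFD (median 125). Chow mouse 4 held the lowest value of all, and the other chow mice lay above the HFD mice (log2 fold change -0.84 ± 0.16, adjusted p = 0.000396). Akt2, the kinase that carries the insulin signal in fat, fell (log2 fold change -0.62 ± 0.15, adjusted p = 0.00333). Insr and Irs1, the receptor and its first substrate, were at -0.26 (adjusted p = 0.0769) and -0.35 (adjusted p = 0.207), and Insr was called lower with the length offset (-0.48, adjusted p = 0.00222).

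In cholesterol synthesis and LDL uptake 4 of 24 rose and 3 fell, again near the shares over all genes tested (12.2% and 15.4%), with a median of 0.01. Pmvk, phosphomevalonate kinase, ranged from 57.1 to 103 CPM on chow (median 71.3) and from 28.4 to 42.04 CPM on HFD (median 33.9), all HFD mice lower (log2 fold change -1.07 ± 0.12, adjusted p = 4.61e-06). Hmgcs1, which opens the pathway, rose (log2 fold change 0.65 ± 0.18, adjusted p = 0.00781), but its call was lost in 10 of the 15 fits without 1 mouse. In cholesterol efflux 4 of 16 rose and 2 fell, with a median of 0.31. Apoe, apolipoprotein E, ranged from 4209 to 7993 CPM on chow (median 5916) and from 2303 to 3239 CPM on HFD (median 2896). No HFD mouse reached a chow mouse (log2 fold change -1.11 ± 0.14, adjusted p = 1.07e-05). Mylip, a ubiquitin ligase induced by LXR, rose, with overlap, at 61.8 CPM in the lowest, 88.3 in the median and 119 in the highest chow mouse, against 109, 178 and 202 CPM on HFD (log2 fold change 0.91 ± 0.13, adjusted p = 4.09e-05), and Abca1, the efflux transporter, rose without overlap (log2 fold change 0.46 ± 0.08, adjusted p = 0.000279).

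**Figure D5:**
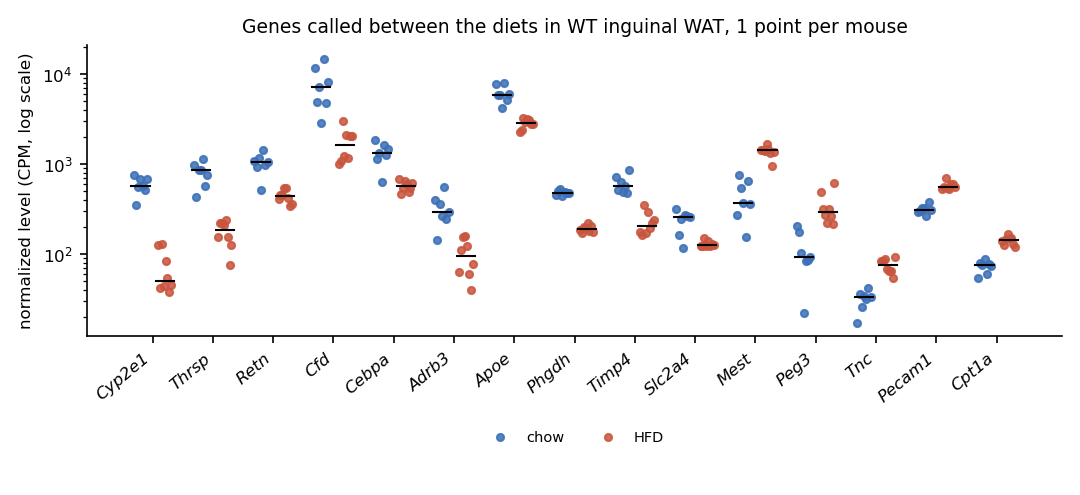
Normalized level (CPM, log axis) of 15 genes called between the diets in WT inguinal WAT, 1 point per mouse, chow in blue and HFD in red, bars at the median. The 10 genes from Cyp2e1 to Slc2a4 are lower on HFD and the 5 from Mest to Cpt1a are higher. In Retn, Cebpa and Slc2a4 a single chow mouse lies within or below the HFD range.

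Endothelial markers were higher where they were called, beside 12.2% over all genes tested. Of 15 endothelial markers 7 rose and none fell (7 and none with DESeq2, 7 and none at an unadjusted p below 0.05), with a median of 0.21, and all 7 held with the length offset. Pecam1, the adhesion molecule CD31, ranged from 266 to 384 CPM on chow (median 308) and from 526 to 697 CPM on HFD (median 558). Every HFD mouse lay above every chow mouse (log2 fold change 0.87 ± 0.09, adjusted p = 1.73e-06). Erg, an endothelial transcription factor, ranged from 36.03 to 58.1 CPM on chow (median 44.9) and from 61.1 to 106 CPM on HFD (median 77.4) (log2 fold change 0.81 ± 0.11, adjusted p = 1.75e-05) and Cdh5, the cadherin of endothelial junctions, from 335 to 473 CPM on chow (median 369) and from 484 to 641 CPM on HFD (median 617) (log2 fold change 0.64 ± 0.09, adjusted p = 3.28e-05), both without overlap. Of 10 pericyte and smooth muscle markers 2 rose, Notch3 and Abcc9. Among 39 matrix glycoproteins and remodelling enzymes 5 rose and 2 fell, with a median of 0.26, and the share that rose was near the 12.2% over all genes tested. Tnc, the glycoprotein tenascin C, ranged from 17.1 to 42.5 CPM on chow (median 33.4) and from 54.8 to 94.1 CPM on HFD (median 76.03), with the diets apart (log2 fold change 1.25 ± 0.16, adjusted p = 1.61e-05). Postn, periostin, ranged from 114 to 171 CPM on chow (median 140.1) and from 191 to 374 CPM on HFD (median 273) (log2 fold change 0.97 ± 0.14, adjusted p = 4.51e-05), and Lox, the enzyme that cross-links collagen, from 64.9 to 183 CPM on chow (median 118) and from 198 to 283 CPM on HFD (median 226) (log2 fold change 0.92 ± 0.16, adjusted p = 0.000219). Both were higher in every HFD mouse.

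The members of the matrix list that fell were an inhibitor of metalloproteinases and a metalloproteinase. Timp4 ranged from 482 to 862 CPM on chow (median 573) and from 162 to 349 CPM on HFD (median 208), without overlap (log2 fold change -1.44 ± 0.17, adjusted p = 7.96e-06). Mmp9 ranged from 9.84 to 18.1 CPM on chow (median 13.9) and from 2.29 to 7.61 CPM on HFD (median 3.99), again apart (log2 fold change -1.70 ± 0.22, adjusted p = 1.4e-05). Of 29 collagens 3 rose, also near 12.2%, and none fell (7 and none with DESeq2, 9 and 3 at an unadjusted p below 0.05). Col28a1, a minor collagen linked to nerves, ranged from 5.60 to 13.4 CPM on chow (median 7.50) and from 13.9 to 23.01 CPM on HFD (median 18.7) (log2 fold change 1.15 ± 0.17, adjusted p = 5.33e-05), and the basement membrane collagen Col4a2 rose less (log2 fold change 0.64 ± 0.15, adjusted p = 0.00215). Col1a1, the main fibrillar collagen, was at -0.06 ± 0.22, adjusted p = 0.837, and Col6a3 at -0.29 ± 0.20, adjusted p = 0.274. In the transforming growth factor beta list 5 of 18 rose, beside 12.2% over all genes tested, and with the length offset 2 rose. The list was led by the ligand Tgfb2 (log2 fold change 1.08 ± 0.30, adjusted p = 0.00797), which was no longer called in 11 of the 15 fits without 1 mouse. Of 23 preadipocyte and fibroblast markers 2 rose and 2 fell, beside 12.2% and 15.4% over all genes tested.

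Imprinted growth genes, expressed from 1 parental allele, had 7 of 16 members higher and 3 lower, with a median of 0.40. Over all genes tested 12.2% were higher and 15.4% lower. Mest, a hydrolase-like protein known to rise as fat expands, ranged from 154 to 754 CPM on chow (median 368) and from 958 to 1676 CPM on HFD (median 1426). The lowest HFD mouse lay above the highest chow mouse (log2 fold change 1.64 ± 0.26, adjusted p = 0.000129). Peg3, a zinc-finger factor, ranged from 22.1 to 205 CPM on chow (median 92.9) and from 215 to 616 CPM on HFD (median 294), apart by a narrow margin (log2 fold change 1.63 ± 0.38, adjusted p = 0.00294). Zim1, a gene beside Peg3, ranged from 0.415 to 11.6 CPM on chow (median 3.87) and from 10.3 to 37.9 CPM on HFD (median 12.1), with overlap (log2 fold change 1.97 ± 0.48, adjusted p = 0.00395). H19, a long non-coding RNA, was detected weakly, ranging from 0 to 1.24 CPM on chow (median 0.242) and from 0.380 to 6.26 CPM on HFD (median 2.96) (log2 fold change 2.90 ± 0.73, adjusted p = 0.00477). Nnat, neuronatin, went the other way, ranging from 716 to 5144 CPM on chow (median 3038) and from 1047 to 1703 CPM on HFD (median 1363) (log2 fold change -1.27 ± 0.29, adjusted p = 0.00239), as did the growth inhibitor Cdkn1c (log2 fold change -0.91 ± 0.16, adjusted p = 0.000261).

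The macrophage result turned on chow mouse 4. With it, 1 of 29 macrophage markers was called, C1qa, a complement subunit of resident macrophages, which fell (log2 fold change -1.20 ± 0.20, adjusted p = 2e-04). Without it, 11 were higher and 1 lower, and the median went from 0.27 to 0.54, beside 14% higher and 17.1% lower over all genes tested in that fit. Summed over the list, macrophage markers were at 1512 to 5535 CPM on chow, 1512 to 3117 CPM without that mouse, and 1681 to 3340 CPM on HFD (2-sided exact permutation test, p = 0.912 with it, adjusted 0.954, and 0.0906 without it). Itgax, CD11c, which marks macrophages that gather in obese fat, ranged from 4.87 to 74.7 CPM on chow (median 9.85) and from 22.96 to 84.4 CPM on HFD (median 58.98). Its highest chow value was that of chow mouse 4, and the log2 fold change went from 1.45 ± 0.56, adjusted p = 0.0534 to 2.35, adjusted p = 0.000434 once that mouse was left out. Mmp12, a macrophage elastase, ranged from 4.77 to 374 CPM on chow (median 20.6) and from 32.1 to 169 CPM on HFD (median 109). With chow mouse 4 it was not called (log2 fold change 0.57 ± 0.85, adjusted p = 0.617), and without it it was (2.40, adjusted p = 0.00473). Cd68, a lysosomal protein of macrophages, behaved likewise (log2 fold change 0.77 ± 0.35, adjusted p = 0.0902, and 1.19, adjusted p = 0.00281 without that mouse). Adgre1, F4/80, and Mrc1, CD206, were not called with it (adjusted p = 0.655 and 0.599).

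Other immune lists held few calls, beside 12.2% higher and 15.4% lower over all genes tested. Of 37 chemokines, cytokines and receptors 2 fell, Ccl24 and Il18, and without chow mouse 4 the count was 6 higher and 2 lower. Ccl2, a monocyte attractant, ranged from 6.59 to 22.97 CPM on chow (median 14.6) and from 5.70 to 51.2 CPM on HFD (median 8.49), with HFD mouse 7 far above the others (log2 fold change 0.02 ± 0.47, adjusted p = 0.977). Tnf was not called (log2 fold change 0.84 ± 0.40, adjusted p = 0.0992), and Il6 was too low to test, at most 0.249 CPM on chow and 0.269 CPM on HFD. Of 14 genes of antigen presentation H2-Eb1 fell (log2 fold change -0.86 ± 0.19, adjusted p = 0.00154) and Clec9a, a marker of cross-presenting dendritic cells, rose (log2 fold change 0.70 ± 0.15, adjusted p = 0.00144). Of 31 lymphocyte markers none was called with edgeR (2 higher with DESeq2, 7 higher at an unadjusted p below 0.05), although their median was 1.51. Their summed level was 67.6 to 313 CPM on chow and 68.9 to 1417 CPM on HFD, the highest being HFD mice 2 and 6 with 1417 and 714 CPM. Among 9 markers of neutrophils, eosinophils and mast cells 2 rose, both of mast cells: Cpa3, a mast cell protease, ranged from 1.74 to 5.34 CPM on chow (median 2.61) and from 5.26 to 11.4 CPM on HFD (median 7.53) (log2 fold change 1.33 ± 0.22, adjusted p = 0.000153), and the receptor Kit rose less (log2 fold change 0.66 ± 0.16, adjusted p = 0.00372). S100a8, of neutrophils, was at -0.41 ± 0.48, adjusted p = 0.519.

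Among interferon-stimulated genes 5 of 24 were higher and 3 lower, beside 12.2% and 15.4% over all genes tested. Ifi27, a small mitochondrial and nuclear-envelope protein, ranged from 475 to 756 CPM on chow (median 637) and from 187 to 255 CPM on HFD (median 223). Its HFD mice lay far below the chow mice (log2 fold change -1.50 ± 0.10, adjusted p = 4.76e-08). Mx2, an antiviral GTPase, ranged from 2.18 to 4.23 CPM on chow (median 2.85) and from 4.25 to 6.93 CPM on HFD (median 5.82) and was higher in every HFD mouse (log2 fold change 0.92 ± 0.17, adjusted p = 0.000408). Isg15, a ubiquitin-like modifier, fell (log2 fold change -0.68 ± 0.18, adjusted p = 0.00688), but not with the length offset (-0.18, adjusted p = 0.465). Chow mouse 1 stood above the other chow mice for Bst2 (255 CPM, next 146 CPM) and Irf7 (119.9 CPM, next 69.7 CPM). Without that mouse Irf7 turned from lower to higher on HFD (0.25, adjusted p = 0.266), and it was called in neither fit.

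Of 26 genes of the integrated stress response, the program that ATF4 runs when translation is held back, 8 fell and 3 rose, and with the length offset 3 fell and 2 rose. Phgdh, the first enzyme of serine synthesis, ranged from 444 to 535 CPM on chow (median 482) and from 170.3 to 220.3 CPM on HFD (median 189.6). The diets were widely apart (log2 fold change -1.34 ± 0.08, adjusted p = 8.96e-09). Atf4 itself ranged from 169.8 to 213 CPM on chow (median 192) and from 113 to 195 CPM on HFD (median 137), with overlap (log2 fold change -0.44 ± 0.11, adjusted p = 0.00309), and Atf5, a related factor, fell further (log2 fold change -0.87 ± 0.17, adjusted p = 0.000733). With the offset neither was called (Atf4 -0.17, adjusted p = 0.161, and Atf5 -0.54, adjusted p = 0.0124). Ddit3, CHOP, fell (log2 fold change -0.41 ± 0.11, adjusted p = 0.00675), a call lost in 9 of the 15 fits without 1 mouse, and Asns, asparagine synthetase, fell (log2 fold change -0.69 ± 0.14, adjusted p = 0.000896). Slc3a2, a chain of an amino acid transporter, rose (log2 fold change 0.36 ± 0.08, adjusted p = 0.00212). In the unfolded protein response of the endoplasmic reticulum 4 of 21 fell and 1 rose. Beside both lists, 15.4% fell and 12.2% rose over all genes tested. Pdia6, a disulphide isomerase, ranged from 196 to 238 CPM on chow (median 220.1) and from 122 to 172 CPM on HFD (median 134), lower in every HFD mouse (log2 fold change -0.67 ± 0.08, adjusted p = 4.29e-06), while the chaperone Hspa5 was at 0.01 ± 0.12, adjusted p = 0.939.

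The lists of hypoxia, immediate early and heat shock, clock and cell cycle genes stand beside 15.4% lower and 12.2% higher over all genes tested. In the hypoxia list 2 of 18 genes fell and 1 rose. Ldha, lactate dehydrogenase A, ranged from 818 to 1178 CPM on chow (median 1017) and from 483 to 646 CPM on HFD (median 586). No HFD mouse reached a chow mouse (log2 fold change -0.79 ± 0.09, adjusted p = 6.36e-06). Pgk1, of glycolysis, ranged from 125 to 173 CPM on chow (median 137) and from 73.04 to 97.7 CPM on HFD (median 82.2), also apart (log2 fold change -0.74 ± 0.09, adjusted p = 6.75e-06). Hif1a, the oxygen-regulated factor itself, rose (log2 fold change 0.38 ± 0.08, adjusted p = 0.00163), and its target Vegfa was not called (log2 fold change -0.11 ± 0.15, adjusted p = 0.571). Among 21 immediate early and heat shock genes 1 rose and 2 fell, Fosl1 against Jund and Hspa1a. Fos ranged from 2.01 to 31.96 CPM on chow (median 8.71) and from 7.01 to 70.1 CPM on HFD (median 21.8) and was not called (log2 fold change 1.25 ± 0.60, adjusted p = 0.108). Of 19 clock genes 2 fell, Bhlhe41 (log2 fold change -0.86 ± 0.16, adjusted p = 0.000347) and Nr1d1 (log2 fold change -0.52 ± 0.13, adjusted p = 0.00346). Of 26 cell cycle genes 2 rose, Kif11 and Cdk1, and 1 fell, Pcna. Mki67 missed the threshold (log2 fold change 0.75 ± 0.23, adjusted p = 0.0137) and passed it without chow mouse 4 (1.004, adjusted p = 0.000151).

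Markers of tissues that adjoin the fat pad were measured beside these lists, where 12.2% were higher and 15.4% lower over all genes tested. Of 16 skeletal muscle genes 3 rose (Myh2, Casq1 and Mb), and the summed level was 95.3 to 1070 CPM on chow and 127 to 1896 CPM on HFD, with overlap. Of 10 Schwann cell and nerve markers none was called (none with DESeq2, 4 lower at an unadjusted p below 0.05). Of 3 mesothelial genes that could be tested 1 fell, Lrrn4, and it was not called without chow mouse 4. Of 3 epithelial and mammary genes Krt10 fell (log2 fold change -0.88 ± 0.22, adjusted p = 0.0037), and of 5 red blood cell genes Hbb-bt fell (log2 fold change -1.77 ± 0.37, adjusted p = 0.00138). Malat1, a nuclear RNA, ranged from 115 to 153 CPM on chow (median 133) and from 142 to 529.7 CPM on HFD (median 307) and rose (log2 fold change 1.30 ± 0.26, adjusted p = 0.000876), and Neat1, the RNA scaffold of paraspeckles, ranged from 2564 to 5364 CPM on chow (median 3287) and from 1464 to 2666 CPM on HFD (median 1980) and fell (log2 fold change -0.77 ± 0.16, adjusted p = 0.000926). The part of such cells in the changes above was not tested.

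The largest rises were of weakly expressed genes. Named by size among called genes without overlap and with at least 1 CPM on HFD, the 10 largest were Gm39091, Gm27206, Gm9821, Gm16726, Hapln4, A930005N03Rik, Elovl3, Gm16617, Tm4sf19 and Cacng5. In Gm39091, Gm27206, Gm16726, Elovl3 and Tm4sf19 no chow mouse had more than 3 counts, so that their rise is given as a bound against 3 counts per library. Gm27206 (chr2:160743927-160751909, build GRCm38) was at least 9.12-fold higher, Gm16726 at least 8.20-fold, Tm4sf19 at least 5.14-fold, Gm39091 at least 5.05-fold and Elovl3 at least 3.43-fold. Elovl3 (chr19:46131897-46135307), an elongase of saturated and monounsaturated fatty acids, had no counts in 4 of 7 chow mice and 0.254 to 1.90 CPM on HFD. Hapln4 (chr8:70083457-70090862), a link protein that binds hyaluronan to proteoglycans, ranged from 0 to 0.381 CPM on chow (median 0.101) and from 0.797 to 4.12 CPM on HFD (median 2.61), with the diets apart (log2 fold change 4.42 ± 0.53, adjusted p = 6.75e-06). Gm16617 (chr14:51986425-51988827) is annotated antisense to Arhgef40 and ranged from 0 to 0.418 CPM on chow (median 0.121) and from 1.37 to 3.46 CPM on HFD (median 2.57) (log2 fold change 3.99 ± 0.45, adjusted p = 3.58e-06). A930005N03Rik (chr1:34269882-34271128) lies on the strand opposite Dst, which itself rose (0.94, adjusted p = 1.08e-05), and ranged from 0.171 to 1.67 CPM on chow (median 0.830) and from 4.77 to 28.8 CPM on HFD (median 14.9) (log2 fold change 4.28 ± 0.46, adjusted p = 4.28e-06). In all, 6 of the 10 overlap a gene on the other strand, and since no source used here says whether counting used strand, the reads of such partners cannot be told apart.

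The largest falls included a detoxifying enzyme of the cytochrome P450 family at a high level. Cyp2e1 (chr7:140763739-140774987, plus strand), which oxidizes ethanol and small solvents, ranged from 349.7 to 765 CPM on chow (median 569) and from 37.8 to 131 CPM on HFD (median 50.1). The highest HFD mouse stayed well below the lowest chow mouse (log2 fold change -3.06 ± 0.30, adjusted p = 2.55e-06). Cyp2f2 (chr7:27119909-27133660), another P450, ranged from 11.8 to 152 CPM on chow (median 50.3) and from 0.254 to 4.78 CPM on HFD (median 1.76) (log2 fold change -4.76 ± 0.66, adjusted p = 6.8e-05). The antisense gene Gm15883, which lies within it, ranged from 2.96 to 24.9 CPM on chow (median 10.5) and from 0.154 to 1.54 CPM on HFD (median 0.450) (log2 fold change -4.55 ± 0.56, adjusted p = 1.61e-05), and their reads may be shared. Prtn3, proteinase 3 of neutrophil granules, ranged from 5.65 to 39.8 CPM on chow (median 12.5) and from 1.36 to 4.03 CPM on HFD (median 2.75) (log2 fold change -2.67 ± 0.38, adjusted p = 5.21e-05). Rps2-ps6, a processed pseudogene, ranged from 42.99 to 55.2 CPM on chow (median 49.4) and from 4.44 to 8.998 CPM on HFD (median 7.10) (log2 fold change -2.84 ± 0.14, adjusted p = 1.25e-09), and as a copy of a ribosomal protein gene its count is uncertain. The others were Gm6439, Gm46350, Gm12933, Gm7868 and Lrtm1, the last of them inside Cacna2d3, which fell too (-1.33, adjusted p = 0.00862).

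Whether the WT diet effect was shared by KI mice was tested across the 29 inguinal count columns, 1 per mouse, where the table and its depth are common to both genotypes. Of 17400 genes tested, 110 differed in their diet effect (edgeR quasi-likelihood test of the interaction, 0.632%), 36 with a higher and 74 with a lower effect in KI mice. At an unadjusted p below 0.05 there were 2927. Of the 110, 22 were called higher and 31 lower in WT mice, and 57 were not called or not tested there. Agt ranged from 2.83 to 119 CPM in chow WT mice (median 29.2), from 1.25 to 3.16 in HFD WT mice (median 2.37), from 4.97 to 19.1 in chow KI mice (median 10.1) and from 9.70 to 25.69 in HFD KI mice (median 18.3). In KI mice alone its diet effect was 0.71 on the log2 scale (adjusted p = 0.0507), and the difference of the diet effects, KI minus WT, was 4.67 ± 0.70, adjusted p = 0.00063. Apoe ranged from 4292 to 7911 CPM in chow WT mice (median 5970), from 2336 to 3322 in HFD WT mice (median 2968), from 6023 to 8071 in chow KI mice (median 6670) and from 5297 to 7588 in HFD KI mice (median 6537). Only the HFD WT mice stood low (difference 1.05 ± 0.17, adjusted p = 0.000945). Timp4 ranged from 483 to 855 CPM in chow WT mice (median 568), from 158 to 358 in HFD WT mice (median 213), from 255 to 565 in chow KI mice (median 476) and from 378 to 611 in HFD KI mice (median 568), with the lowest median in HFD WT mice (difference 1.75 ± 0.26, adjusted p = 0.00043).

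De novo lipogenesis had the largest share of members called in the difference test among the lists. In KI mice 15 of 21 genes fell on HFD and 2 rose, with a median of -1.66 against -0.23 in WT mice, and 8 were called in the difference test (Acly, Elovl6, Fads1, Fasn, Me1, Pnpla3, Scd2 and Slc25a1, named after their values were seen). Over all genes tested, 16.5% fell and 13.8% rose in KI mice, and the difference test called 0.632%. Fads1 went against the rest, with a higher diet effect in KI mice (difference 1.47), where the other 7 had a lower one. A further fit left out 7 mice that held mesothelial, lymphocyte or muscle transcripts. They were chow WT mouse 4, HFD WT mice 2 and 6, chow KI mice 3 and 4, and HFD KI mice 2 and 3. HFD KI mouse 5, with 3498 CPM of skeletal muscle markers, and HFD WT mouse 1, with 1893 CPM, were kept. Without the 7 mice, where 0.302% of all genes tested were called, Fads1 alone of the 8 was still called (1.36), against the direction of the others. The other 7 genes stood at adjusted p = 0.0119 to 0.0473, each in its earlier direction (Fasn -2.89, adjusted p = 0.0342, and Acly -2.49, adjusted p = 0.0173). Fasn ranged from 839 to 3182 CPM in chow WT mice (median 1783), from 476 to 1594 in HFD WT mice (median 912), from 2022 to 19258 in chow KI mice (median 4601) and from 229 to 941 in HFD KI mice (median 442). The chow KI mice held the highest values, and the HFD values of the genotypes overlapped (difference -2.89 ± 0.54, adjusted p = 0.00404). Acly ranged from 117 to 225 CPM in chow WT mice (median 156), from 98.4 to 199 in HFD WT mice (median 129.8), from 313 to 2316 in chow KI mice (median 620.3) and from 99.9 to 184 in HFD KI mice (median 127), with the chow KI mice above all the other groups (difference -2.54 ± 0.40, adjusted p = 0.000945). The 5 largest differences by size were of Elovl3, Hephl1, Slc2a5, Atp4b and Hapln4. Elovl3 ranged from 0 to 0.192 CPM in chow WT mice (median 0), from 0.260 to 1.93 in HFD WT mice (median 0.899), from 0.265 to 12.5 in chow KI mice (median 2.06) and from 0.0430 to 0.308 in HFD KI mice (median 0.164), with the higher values on HFD in WT mice and on chow in KI mice (difference -8.27 ± 1.03, adjusted p = 4.46e-05, a size that depends on the prior count of the fit, since chow WT mice held at most 2 counts). Hephl1, a copper-dependent ferroxidase, had its higher medians in the same 2 groups, ranging from 0.120 to 1.27 CPM in chow WT mice (median 0.950), from 1.30 to 13.9 in HFD WT mice (median 4.64), from 2.65 to 13.5 in chow KI mice (median 4.67) and from 0.659 to 1.58 in HFD KI mice (median 1.05) (difference -5.46 ± 0.63, adjusted p = 1.56e-05). Slc2a5, the fructose transporter GLUT5, was low in all WT mice, ranging from 0.105 to 0.820 CPM in chow WT mice (median 0.240), from 0 to 0.335 in HFD WT mice (median 0.219), from 11.5 to 177 in chow KI mice (median 32.1) and from 0.389 to 1.61 in HFD KI mice (median 0.824) (difference -5.13 ± 0.91, adjusted p = 0.00241), a call lost with thinned libraries (adjusted p = 0.0104) and without 7 mice that held transcripts of other tissues (adjusted p = 0.0924). Atp4b, a subunit of a proton pump, was likewise low in WT mice, at most 0.109 CPM (difference -5.07 ± 1.08, adjusted p = 0.00964, with the same limit), and its call was lost in 22 of the 29 fits without 1 mouse. Hapln4 was raised only in HFD WT mice, which held 0.818 to 4.18 CPM against at most 0.761 CPM in any other mouse (difference -5.04 ± 0.98, adjusted p = 0.00467), a call lost without chow KI mouse 1 (adjusted p = 0.0347) or 3 (adjusted p = 0.0131), without those 7 mice (adjusted p = 0.0226) and with the replicate block (adjusted p = 0.0209).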

How the data were processed

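RNA of inguinal WAT was sequenced from poly(A)-selected libraries. Per the labels and the study's methods, the authors used cutadapt for adapter removal, STAR for alignment (mouse build GRCm38), SAMtools for the alignment files and featureCounts for gene counts, and deposited raw counts in 1 table per diet. Versions and the strand setting are not given in the sources used here. Of 54838 entries per table, 1884 lacked a count or length, and 200 shared 99 symbols with identical counts and were used once, leaving 52853 genes. No per-sample column was left unmapped (0), and KI columns entered only where stated.

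Counts were fitted with edgeR 4.0.16 (R 4.3.3) after filterByExpr and TMM scaling, with the quasi-likelihood test on diet and Benjamini-Hochberg adjustment over all genes tested. A gene was called at an adjusted p below 0.01. The SE is the log2 fold change divided by the square root of its F statistic. CPM values are TMM-scaled. DESeq2 1.42.0, other scalings, filters, thinning, a lymphocyte covariate, the replicate block and leaving out each mouse were run as alternatives. The gene length offset (lowess on length, within each library) and the sets without 3 mice, 7 mice or chow KI mouse 4 were added after seeing the data. Single measures per mouse were tested by exact permutation (2-sided, all 6435 divisions of the mice). The fits were tested on simulated data. The p-values set the difference between groups against the spread between mice within them. Variation from table to table does not enter that spread, and depth covers counting error only.

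Named genes were the 10 largest rises and falls called without overlap at a mean of at least 1 CPM, the anchor genes of 40 lists, the 3 largest called rises and falls of each list, and the 5 largest genotype differences. Others are marked in the text, and a few genes that the rule names are not reported here. The members and lists were chosen with earlier results of these data known.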

Additional observations from a re-analysis of the deposited data

Results flagged for a closer look

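Single mice that stood apart from their own diet group were looked for by the gap to the nearest mouse over the range of the group (Dixon's criterion). Of 422 groups examined, 2 diets for each of 211 measures, 47 passed it. The criterion passes about 1 in 20 groups of independent, normally distributed values. The measures here were not independent, with many flags from chow mouse 4, and normality was not tested, so the 47 are not read against chance. The values are given with the nearest other mouse of the group.

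Chow mouse 4 was the highest of its group for Adgre1 at 73.8 CPM (next 38.4), Agt at 117 CPM (next 42.2), Cd3e at 4.90 CPM (next 2.14), Cd68 at 137 CPM (next 73.9), Creld2 at 43.4 CPM (next 29.2), Itgax at 74.7 CPM (next 24.8), Lrrn4 at 4.40 CPM (next 1.25), Mmp12 at 374 CPM (next 48.2), Timp1 at 11.96 CPM (next 3.15), Tnf at 4.65 CPM (next 2.40) and Trem2 at 100.1 CPM (next 30.6). It was the lowest for Dpt at 454 CPM (next 1301). In the same mouse the summed macrophage markers were at 5535 CPM (next 3117), the mesothelial markers at 250.1 CPM (next 4.81), the epithelial and mammary markers at 45.6 CPM (next 7.32) and the adipocyte markers at 47540 CPM, the lowest of the group (next 70860). Its 10 most abundant genes held 8.20% of its counts, also the lowest (next 10.1%).

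Chow mouse 1 stood highest for Bst2 at 255 CPM (next 146), Ly6a at 388 CPM (next 246) and Zim1 at 11.6 CPM (next 4.86). Chow mouse 2 stood highest for Casq1 at 23.6 CPM (next 11.5). Chow mouse 3 stood highest for Abcc9 at 77.3 CPM (next 63.1). Chow mouse 5 stood highest for Dgat1 at 416 CPM (next 286) and Etfb at 113 CPM (next 69.3). Chow mouse 6 stood highest for Pgk1 at 173 CPM (next 145). Chow mouse 7 stood highest for Gm27206 at 0.363 CPM (next 0.105).

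HFD mouse 1 stood highest for Cdk1 at 15.1 CPM (next 10.6) and Sdhb at 113 CPM (next 99.9). HFD mouse 2 stood highest for Hbb-bt at 53.1 CPM (next 18.7). It was the lowest for Dbp at 83.03 CPM (next 135). Its summed red blood cell genes were at 3000.0 CPM (next 1382) and its pericyte and smooth muscle markers at 1309 CPM, the lowest of the group (next 2023). HFD mouse 3 stood highest for Klf15 at 79.98 CPM (next 53.6), Pecam1 at 697 CPM (next 605) and Ppargc1a at 4.46 CPM (next 3.13). HFD mouse 4 stood highest for Acly at 195 CPM (next 137), Cd36 at 4335 CPM (next 3646), Gm39091 at 4.38 CPM (next 1.89), Pcx at 800.4 CPM (next 560.3) and Pik3cb at 93.7 CPM (next 71.2). HFD mouse 5 stood highest for Ndufa2 at 90.2 CPM (next 67.6). HFD mouse 6 stood highest for Mmp9 at 7.61 CPM (next 4.73). HFD mouse 7 stood highest for Atf5 at 228 CPM (next 153), Ccl2 at 51.2 CPM (next 13.4), Fn1 at 340.0 CPM (next 136), Lep at 4047 CPM (next 2754) and Timp1 at 6.42 CPM (next 3.70).

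The diet effect differed between the genotypes by the test of the difference itself for 15 of the genes described (edgeR quasi-likelihood test, adjusted p below 0.01). On the log2 scale, KI minus WT, the difference was higher for Agt (4.67), Timp4 (1.75), Apoe (1.05) and Phgdh (0.89), and lower for Elovl3 (-8.27), Hephl1 (-5.46), Slc2a5 (-5.13), Atp4b (-5.07), Hapln4 (-5.04), Fasn (-2.89), Acly (-2.54), Cpa3 (-2.35), mt-Nd2 (-1.58), Fabp5 (-1.41) and Nsdhl (-1.22). The sizes for Elovl3 and Atp4b depend on the prior count of the fit, because chow WT mice, and for Atp4b all WT mice, held at most 3 counts. Without the 7 mice of both genotypes named earlier as left out, the calls of Acly, Atp4b, Fabp5, Fasn, Hapln4, mt-Nd2, Nsdhl and Slc2a5 were lost (adjusted p = 0.0173 to 0.0924).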

How the results depend on the processing

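Diet, count table, depth and libraries per mouse coincided, so no alternative separates them, and the depth of the chow libraries limits weakly expressed genes. Over the alternatives run, 1516 to 2571 genes were called higher and 1761 to 2824 lower, each within 1.5 times of 1998 and 2516, apart from the threshold on adjusted p. At 0.001 the counts were 899 higher and 1535 lower, and at 0.05 3275 higher. Leaving out 1 mouse gave 1673 to 2298 higher and 2200 to 2811 lower, with the lowest counts without chow mouse 5 and the highest without chow mouse 4. The genotype difference was less stable. Its 110 genes became 414 with DESeq2, 168 with at least 10 counts in every mouse, 192 with the length offset, 52 without 7 mice that held mesothelial, lymphocyte or muscle transcripts, 19 at an adjusted p of 0.001 and 500 at 0.05. Without 1 mouse it ran from 69 (chow KI mouse 1) to 269 (chow KI mouse 5), with 206 without chow WT mouse 4, 73 without chow WT mouse 7, 71 without HFD KI mouse 7 and 220 without HFD WT mouse 7. The cause was not tested.

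The replicate block, with mice of the same number paired, gave 1516 higher, 2074 lower and 42 genes in the genotype difference. Mice of the same number are different animals on different diets. Their deviations correlated at -0.158 to 0.234, above 0.1 in 2 of 7 pairs, and 1 of 7 chow mice correlated best with its own number, so the numbers were not taken as pairing.

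For the genes named by rule and reported, outside the fits that left out 1 mouse, 2161 values kept direction and side of the threshold, 138 (62 genes) lost the call, 13 (9 genes) gained one and 17 (11 genes) changed sign. The 17 include the Cd3e value set aside below. DESeq2 gave no adjusted p for Atp4b and Hapln4 in the genotype difference. Of 15 fits without 1 mouse, the call was lost in 13 for Lrrn4, 11 for Tgfb2, 10 for Fasn, Hmgcs1 and Il18, 9 for Ddit3 and Fosl1, 6 for Isg15, 5 for Fabp5 and Kif11, 4 for H19, and 1 for Adora1 (without chow mouse 3), Krt10 and Zim1 (without chow mouse 5). None of the genes that changed sign was called in WT mice (edgeR). The sign turned with HFD libraries thinned to chow depth for Ccl2 (-0.029). With at least 10 counts in every mouse, a value of -0.34 was returned for Cd3e. That gene stood at 0.846 CPM in chow mouse 7, a library of 8668279 counts, too little to pass the filter. The value therefore cannot belong to Cd3e and is set aside. The sign turned with chow mouse 4 and HFD mice 2 and 6 left out for Inhba (0.032), Opa1 (-0.013) and Timp1 (0.59). The sign turned with the length offset for Acta1 (0.11), Adipoq (0.30), Irf7 (0.0043), Opa1 (-0.071), Pdgfra (-0.0027), S100a8 (0.058) and Timp1 (0.081). The sign turned with a lymphocyte covariate for Col1a1 (0.078). The sign turned with the replicate block for Ccl2 (-0.33), Col1a1 (0.015), Irf7 (0.023) and S100a8 (0.039). Leaving out 1 mouse moved Acta1 from -0.71 to 0.24, Arntl from -0.039 to 0.36, Ccl2 from -0.66 to 0.17, Col1a1 from -0.17 to 0.12, Hspa5 from -0.045 to 0.062, Irf7 from -0.20 to 0.25, Opa1 from -0.022 to 0.085, S100a8 from -0.59 to 0.062 and Timp1 from -0.65 to 0.40.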
